A study of Ovis aries with 27 samples.

Results

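Hemoglobin transcripts and the transcript of AHSP, the chaperone of alpha-hemoglobin, were followed in the heart septum of 27 sheep fetuses. The probes were those that the array files name AHSP or HBB, together with every probe whose description contains hemoglobin. These were 5 of the 15008 probes of the array, under 3 gene names of the files: 2 for AHSP, 2 for HBB, the beta chain of hemoglobin, and 1 for the fetal beta chain. The files described 0 probes as an alpha chain, so the chain that AHSP binds was not measured here under that name. The set was chosen by the level of AHSP, known to be lower at 140 d than at 130 d in control fetuses, so that comparison is given as a description without a test. The comparisons of cortisol with control use the same control arrays. In fetuses of cortisol-infused ewes, the fetal beta chain fell by 4.72 on the log2 scale between 130 d and 140 d. The size of this fall is uncertain, because only 5 of 7 older arrays measured the probe above background. With another background correction the change was -2.65. Both AHSP probes had lower means at 140 d and 1 of the 2 passed the test, while neither HBB probe passed. The AHSP call was lost in several alternative fits. Cortisol against control gave 0 calls for these probes at either age.

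The arrays covered 7 fetuses of cortisol-infused ewes at 140 d of gestation, 8 fetuses of vehicle-infused ewes at 140 d, 6 fetuses of cortisol-infused ewes at 130 d and 6 fetuses of vehicle-infused ewes at 130 d. Cortisol, the main glucocorticoid of sheep, was infused into the ewe at 1 mg/kg/d. The older fetuses were collected at 139 to 144 d after about 25 d of infusion, and the younger ones at 129 to 131 d after about 10 d. The ages were separate cohorts, so between 140 d and 130 d a difference of age cannot be told apart from one of cohort or of infusion length. One label gives day 120 as the approximate start for the younger cohort, and another gives day 115 for all ewes. The 8 older controls came from 1 fewer ewe because of twins, and the labels do not say which fetuses these were.

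Hemoglobin carries oxygen in red cells as a complex of alpha chains and beta-type chains around heme. Sheep make a fetal beta chain before birth and replace it with an adult beta chain around term, a change whose timing in this species has been linked to fetal cortisol. AHSP, known from human and mouse red cell precursors, binds free alpha chains and keeps them from aggregating. Heart muscle uses myoglobin as its own oxygen-binding protein, and globin transcripts in a tissue extract are usually carried by immature red cells in its blood. In bulk tissue, fewer red cell precursors and less globin RNA per cell cannot be told apart.

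The probe sequences were compared with the other probes of the array, and not with transcript sequences, which were not at hand. Both AHSP probes come from the same expressed sequence tag and overlap in 59 of their 60 bases (capitals), so they are repeat measurements of the same target and not independent evidence.
A_70_P054886: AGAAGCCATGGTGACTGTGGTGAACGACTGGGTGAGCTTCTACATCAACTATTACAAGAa
A_70_P054887: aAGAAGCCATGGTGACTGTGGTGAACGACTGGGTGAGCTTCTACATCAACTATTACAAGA
The first HBB probe, called the HBB RefSeq probe here, was designed from the HBB reference transcript, and its whole sequence follows.
A_70_P051261: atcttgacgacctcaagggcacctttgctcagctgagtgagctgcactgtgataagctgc
The file lists 2 reference transcripts for this probe. In the supplied RefSeq gene table they belong to HBB and to LOC100134870, which has the synonym HBBC, the beta C chain that sheep can make after birth and in anaemia. The probe was therefore listed for both genes, and its signal cannot be divided between them. Whether it or the other beta-chain probes also bind transcripts of a further beta-type chain was not tested.
The second HBB probe, called the HBB EST probe, was designed from an expressed sequence tag of adult sheep and shares no run longer than 7 bases with the RefSeq probe. Its first 30 bases and the last 30 bases of the fetal beta probe follow.
A_70_P061046: gcatctggcctctgcttaatatagacactt
A_70_P022102: gtgttcactagcagctacacaaacagacac
The fetal beta probe shares at most 6 bases in a row with any of the other 4 probes. No probe of the set shares 20 bases in a row with another probe of the array, apart from the 2 AHSP probes with each other.

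Levels below are log2 intensities relative to the 75th percentile of the array, which is 0, and a step of 1 is a factor of 2. On each array 77.0% to 87.0% of spots were flagged well above background, 0 spots were saturated and 0 of the spots of this set were marked as outliers by the scanner software. The share well above background averaged 79.4% in cortisol fetuses and 80.0% in controls at 140 d. At 130 d it averaged 82.6% and 83.4%, so spots of all kinds were flagged somewhat less often at 140 d. The 75th percentile of intensity was 884 ± 149 in cortisol fetuses at 140 d, 838 ± 59.3 in controls at 140 d, 1093 ± 77.0 in cortisol fetuses at 130 d and 1160 ± 101 in controls at 130 d (SD, n = 7, 8, 6 and 6). Myoglobin (MB), which marks the labelled heart muscle, was well above background on all 27 arrays, with group means between 8.02 and 8.49. The number of arrays limits the precision of all values.

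AHSP was detected in every fetus at 130 d and was near or below the detection limit in several at 140 d. The first AHSP probe (A_70_P054886) was well above background on 5 of 7 cortisol arrays and 5 of 8 control arrays at 140 d, against 6 of 6 arrays in each group at 130 d. Its lowest, median and highest levels were -7.95, -4.39 and -2.90 in cortisol fetuses at 140 d, -7.72, -5.89 and -3.09 in controls at 140 d, -3.84, -2.81 and -1.23 in cortisol fetuses at 130 d, and -3.22, -2.55 and -2.39 in controls at 130 d. The controls at 130 d lay close together (SD 0.31), while both groups at 140 d were spread widely (SD 1.89 with cortisol and 1.66 in controls). At 140 d, 2 of 7 cortisol fetuses and 1 of 8 controls lay within the range of the younger fetuses of their arm, and the others lay below it.

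The second AHSP probe (A_70_P054887) followed the first on most arrays. Its group means were -4.57 ± 1.58 in cortisol fetuses at 140 d, -5.87 ± 1.79 in controls at 140 d, -2.65 ± 1.07 in cortisol fetuses at 130 d and -2.62 ± 0.31 in controls at 130 d (SD, n = 7, 8, 6 and 6). Cortisol 140 d replicate 2 differed most, with an intensity of 4.37 on the first probe, which was not well above background, and of 49.7 on the second, which was. The first probe minus the second was -3.51 there, against -0.45 to 0.67 on the other cortisol arrays at 140 d. Control 140 d replicate 4 was well above background on the first probe (15.0) and not on the second (7.39).

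HBB was well above background on all 27 arrays with both of its probes. On the HBB RefSeq probe the lowest, median and highest levels were 0.62, 4.08 and 5.07 in cortisol fetuses at 140 d, 1.59, 2.59 and 4.80 in controls at 140 d, 4.24, 5.04 and 5.44 in cortisol fetuses at 130 d, and 4.05, 5.15 and 5.81 in controls at 130 d. The groups at 130 d were high and narrow, and both groups at 140 d reached from far below that range into it. Of the 8 controls at 140 d, 5 lay at or below 2.82, under every fetus at 130 d.

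The HBB EST probe gave a different order of the groups. Its lowest, median and highest levels were 1.61, 4.82 and 5.69 in cortisol fetuses at 140 d, 1.20, 3.10 and 5.13 in controls at 140 d, 2.45, 3.14 and 5.77 in cortisol fetuses at 130 d, and 3.54, 5.25 and 5.62 in controls at 130 d. On this probe, 4 of the 6 cortisol fetuses at 130 d lay below every control of that age, although the same fetuses were within the control range on the RefSeq probe. Replicate 3, at 5.77, was the highest of all fetuses.

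The fetal beta chain was detected in every fetus at 130 d and was weak in most at 140 d. Its lowest, median and highest levels were -8.06, -3.88 and -2.42 in cortisol fetuses at 140 d, -5.76, -4.42 and -1.69 in controls at 140 d, -1.38, -0.14 and 0.66 in cortisol fetuses at 130 d, and -2.43, -0.78 and 0.44 in controls at 130 d. The probe was well above background on 5 of 7 cortisol arrays and 7 of 8 control arrays at 140 d, and on 6 of 6 arrays in each group at 130 d. All 7 cortisol fetuses at 140 d lay below all 6 cortisol fetuses at 130 d, and in controls only the highest fetus at 140 d, replicate 6, reached the range of the younger ones.

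**Figure D1:**
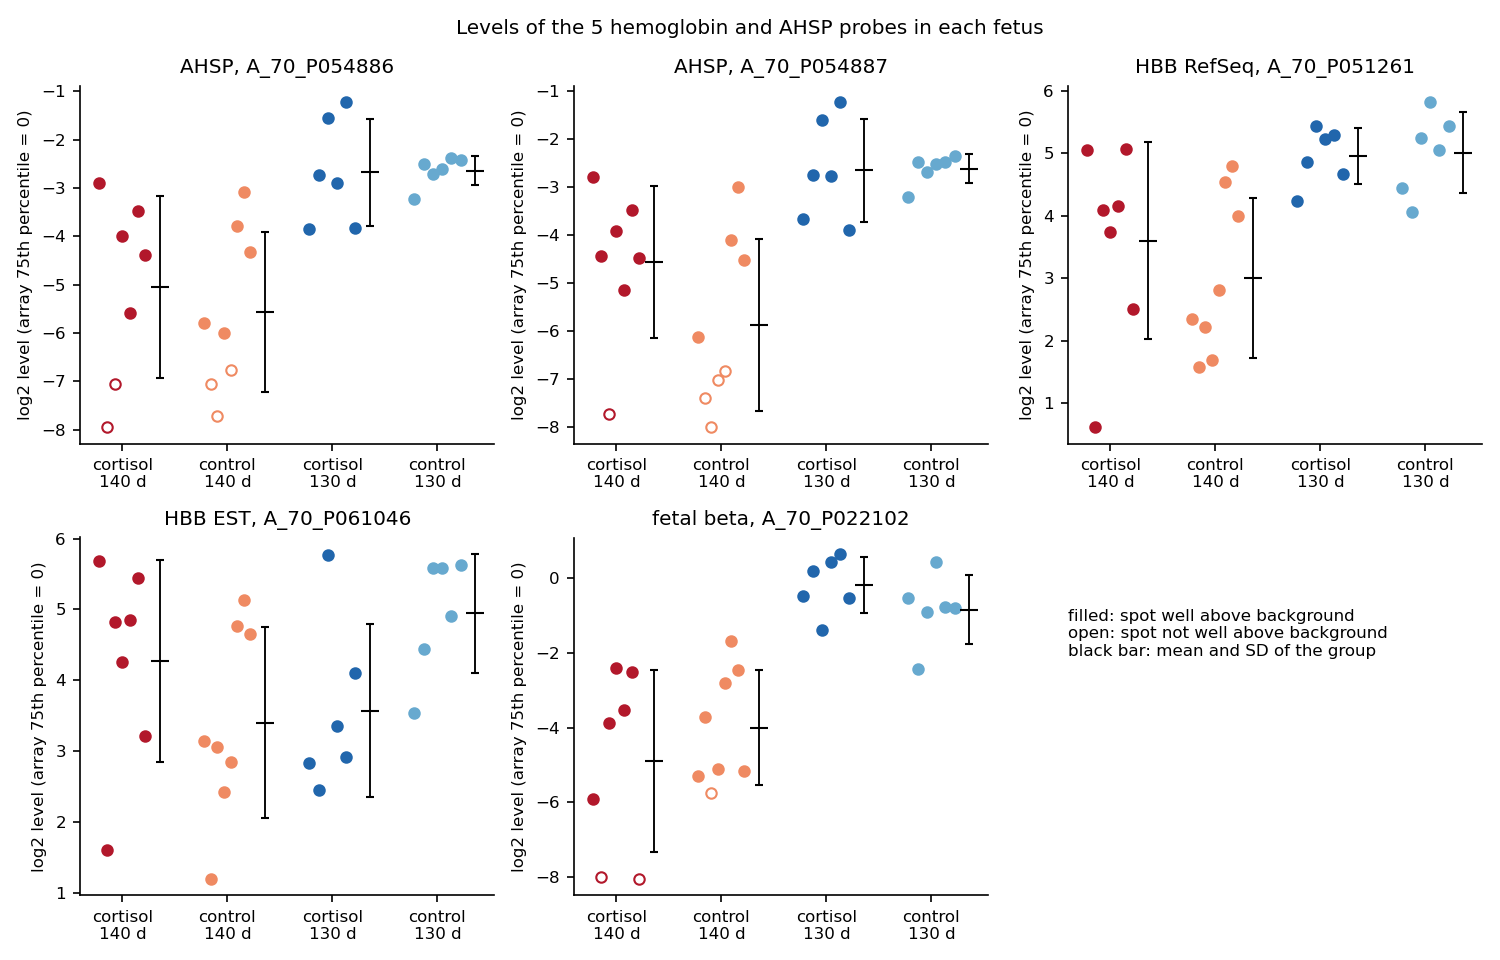
Each panel plots the log2 level of 1 probe (array 75th percentile = 0) for every fetus in the 4 groups, with filled points for spots well above background, open points for the others, and bars for the group mean and SD. The fetal beta probe shows no overlap between cortisol fetuses at 140 d (highest -2.42) and at 130 d (lowest -1.38), while the HBB EST probe is low in most cortisol fetuses at 130 d.

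Ordered by group mean, both AHSP probes and the HBB RefSeq probe ran from controls at 130 d through cortisol at 130 d and cortisol at 140 d to controls at 140 d. For the AHSP probes, the step between the cortisol groups at 140 d and 130 d (2.37 and 1.92) was larger than the larger SD of the groups on either side of it, and the steps within an age were not. For the HBB RefSeq probe none of the 3 steps between neighbours exceeded that SD. The fetal beta probe ran from cortisol at 130 d through controls at 130 d and controls at 140 d to cortisol at 140 d, and only the step between the control groups (3.17) exceeded the SD. The HBB EST probe ran from controls at 130 d through cortisol at 140 d and cortisol at 130 d to controls at 140 d, with no step beyond the SD.

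In cortisol fetuses, the fetal beta chain fell between the ages, and 1 of the 2 AHSP probes passed the same test. The fetal beta probe averaged -4.90 ± 2.43 at 140 d and -0.18 ± 0.76 at 130 d (SD, n = 7 and 6), a log2 change of -4.72 ± 0.84 (SE, limma adjusted p = 0.00089, below the 130 d mean in 7 of 7 fetuses). The change is not an exact fold, because 2 of the 7 older arrays did not measure the probe above background. After normexp background correction it was -2.65 (adjusted p = 0.00053), and it was -2.50 and -2.57 within slides 3 and 4. The call was kept in every alternative in which the probe was tested.

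The first AHSP probe fell in cortisol fetuses by 2.37 ± 0.75 on the log2 scale (SE, limma adjusted p = 0.0366, below the 130 d mean in 7 of 7 fetuses). The overlapping AHSP probe changed by -1.92 ± 0.73 (adjusted p = 0.077) and did not pass. The call on the first probe was lost with normexp background correction (-0.87, adjusted p = 0.295), with quantile normalization (-2.25, adjusted p = 0.0578) and without any 1 of 7 arrays, namely cortisol 130 d replicates 2, 3, 4 and 5 and cortisol 140 d replicates 2, 3 and 5 (adjusted p up to 0.0885). With slide as a fixed block both AHSP probes passed, with changes of -3.04 (adjusted p = 0.00187) and -2.54 (adjusted p = 0.00741).

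Neither HBB probe passed in the cortisol arm. The HBB RefSeq probe changed by -1.35 ± 0.60 (SE, limma adjusted p = 0.133, 95% confidence interval -2.57 to -0.12), with 5 of 7 older fetuses below the younger mean. It passed with slide as a fixed block (-1.72, adjusted p = 0.0322). The HBB EST probe changed by 0.69 ± 0.66 (adjusted p = 0.529, interval -0.66 to 2.05). In all, 2 of the 5 probes were called, both lower at 140 d, against 13.5% of the 12778 probes tested in either direction and 8.52% lower. The set was chosen by the fall of AHSP between the same ages in controls. Since 1 of the 2 called probes is for AHSP, nothing is read from that count. The median change was -1.92 for the 5 probes and -0.04 for all probes. The value for the 5 probes is that of the second AHSP probe. AHSP chose the set and holds 2 of its 5 probes, so nothing is read from this median either. Scaling the arrays to their medians moved every change in this comparison by 0.10, which altered none of the 5 calls.

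In control fetuses, all 5 probes had lower means at 140 d than at 130 d. The differences were -2.93 and -3.26 for the AHSP probes, -2.004 for the HBB RefSeq probe, -1.54 for the HBB EST probe and -3.17 for the fetal beta probe. Levels were below the 130 d mean in 8 of 8 older controls, except for the HBB EST probe with 7 of 8. The fit called 4 of the 5 probes, all but the HBB EST probe, against a background of 19.1% in either direction and 9.35% lower. The set was proposed from this comparison, so nothing is read from that count. With normexp the AHSP differences were -0.87 and -0.999, so the size of the AHSP difference rests on how the dim spots at 140 d are treated.

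Cortisol against control gave 0 calls among the 5 probes at either age, and 0% of the 12778 probes tested passed limma's test at 140 d and at 130 d. At an unadjusted p under 0.05 there were 727 probes at 140 d and 455 at 130 d, none of them from this set. At 140 d, 4 of the 5 probes had higher means with cortisol. The control arrays here also served in the comparison that proposed the set, so nothing is read from that count. The changes were 0.52 (interval -0.93 to 1.96) and 1.30 (-0.08 to 2.69) for the AHSP probes, 0.60 (-0.54 to 1.74) for HBB RefSeq and 0.87 (-0.39 to 2.12) for HBB EST, and -0.90 (-2.51 to 0.72) for fetal beta. Adjusted p values lay between 0.808 and 0.87. All 5 intervals include 0 and reach beyond a factor of 2 in at least 1 direction.

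At 130 d, AHSP and the HBB RefSeq probe had nearly equal means in both arms. The changes with cortisol were -0.04 (interval -1.65 to 1.57) and -0.03 (-1.58 to 1.51) for the AHSP probes and -0.06 (-1.33 to 1.22) for HBB RefSeq. The HBB EST probe averaged 3.57 ± 1.22 in cortisol fetuses and 4.95 ± 0.84 in controls (SD, n = 6 each), a change of -1.37 with an interval of -2.77 to 0.03. The fetal beta probe changed by 0.65 (-1.15 to 2.45). Adjusted p was 1 for all 5 probes.

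The cortisol effect differed between the ages by 2.24 ± 0.92 on the HBB EST probe (SE, unadjusted p = 0.0216, limma adjusted p = 0.7, interval 0.36 to 4.12), which fails the correction over all probes. The differences for the other 4 probes were between -1.55 and 1.34 with adjusted p values of 0.974 to 0.987. These values also include the control arrays from which the set was proposed. No probe of the array passed this test (0 of 12778, with 743 at an unadjusted p under 0.05).

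**Figure D2:**
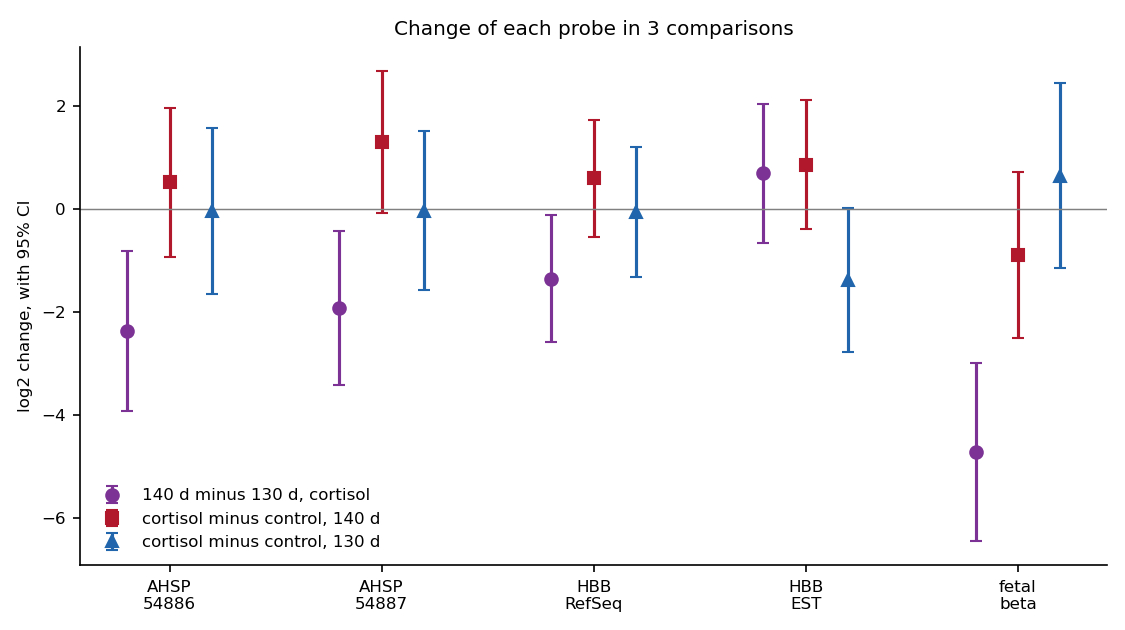
Points are log2 changes of each probe, with 95% confidence intervals from the limma fit, for 140 d minus 130 d in the cortisol arm and for cortisol minus control at 140 d and at 130 d. The fetal beta probe lies at -4.72 for the cortisol arm, and the intervals of all cortisol effects include 0.

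Differences between beta-chain probes on the same array cannot be moved by the scaling of the array. The size of such an excess is not read as a ratio of the transcripts, since the signals of different probes were not calibrated against each other. Only its difference between groups is compared. At 130 d, the HBB RefSeq probe exceeded the fetal beta probe by 5.13 ± 0.85 in cortisol fetuses and by 5.84 ± 0.57 in controls (SD, n = 6 each). The values in cortisol fetuses had a lowest of 4.62, a median of 4.75 and a highest of 6.81, and those in controls had a lowest of 4.98, a median of 5.99 and a highest of 6.48. Of the 6 cortisol fetuses, 4 lay below every control, and replicate 3 lay above every control. The group difference of -0.71 did not pass a two-sided exact permutation test over the arrays (p = 0.126, adjusted p = 0.126 over the 2 pairs of probes compared).

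With the HBB EST probe in place of the RefSeq probe, the excess over fetal beta was 3.76 ± 1.88 in cortisol fetuses and 5.78 ± 1.04 in controls at 130 d. This difference of -2.02 had an exact permutation p of 0.0498, or 0.0996 after adjustment over the 2 pairs, where the smallest p the design allows is 0.00216. The RefSeq pair gave -0.95 with normexp (exact p = 0.00433) and -1.04 without cortisol 130 d replicate 3 (exact p = 0.00866). Neither p was adjusted over the 2 pairs, and both alternatives act on that replicate. With normexp its RefSeq level went from 5.44 to 4.27 and its fetal beta level from -1.38 to -0.41. Leaving out 1 array at a time gave exact permutation p values of 0.0087 to 0.225. Within slide 3, which holds that replicate, the difference of the RefSeq pair was 0.03. At 140 d the fetal beta probe was not above background on every array. On the arrays where it was, the RefSeq probe exceeded it by 6.16 to 10.97 on 5 cortisol arrays and by 5.31 to 9.18 on 7 control arrays, and no test was run.

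The HBB probes also differed from each other within arrays, a pattern chosen for description after the values were seen. The HBB EST level minus the HBB RefSeq level was 0.38 to 0.99 in cortisol fetuses at 140 d (median 0.70), -0.39 to 0.83 in controls at 140 d (median 0.49), -2.41 to 0.34 in cortisol fetuses at 130 d (median -1.64) and -0.91 to 0.39 in controls at 130 d (median 0.02). In 4 of the 6 cortisol fetuses at 130 d the EST probe lay lower against the RefSeq probe than in any other fetus of the study. Cortisol 130 d replicate 3, at 0.34, lay within the control range.

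**Figure D3:**
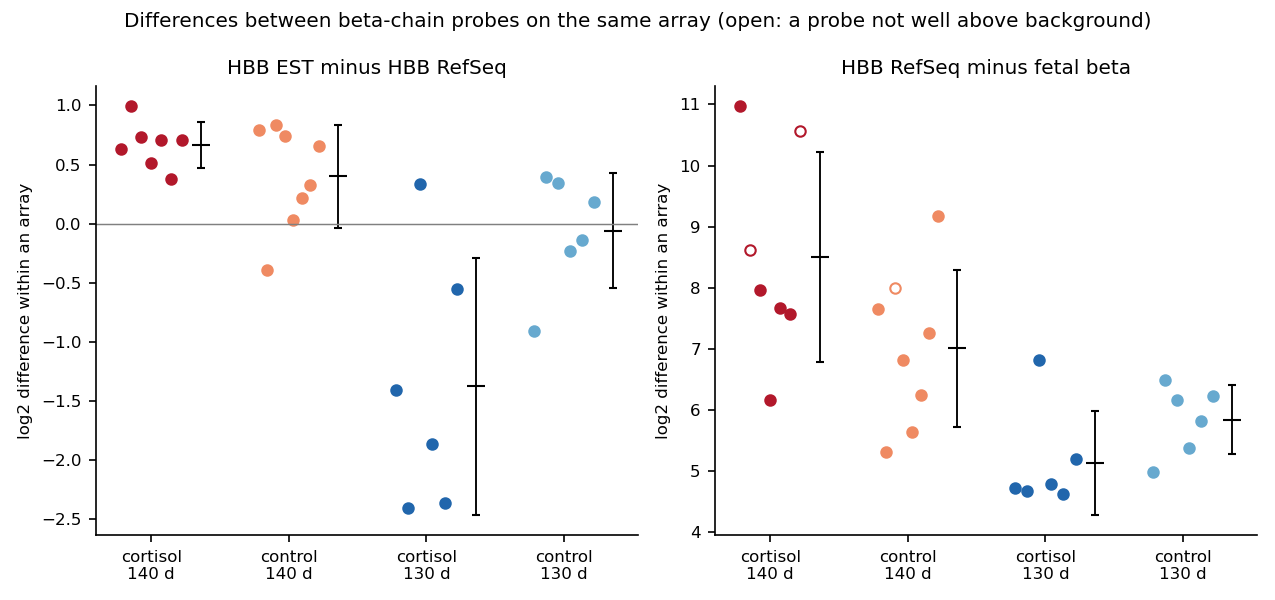
The left panel plots the HBB EST level minus the HBB RefSeq level and the right panel the HBB RefSeq level minus the fetal beta level, in log2 units on the same array, with group mean and SD; open points mark arrays where a probe was not well above background. Cortisol fetuses at 130 d reach -2.41 in the left panel, against a lowest of -0.91 in controls of that age.

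Levels at 140 d differed between slides, each slide being a glass carrier of several arrays. Slides 2, 3 and 4 held all 4 groups, slide 5 held 3 controls and 1 cortisol fetus at 140 d, and slide 1 held 1 cortisol fetus at 140 d. The 3 controls on slide 5, replicates 6 to 8, had HBB RefSeq levels of 4.00 to 4.80, against 1.59 to 2.82 for the 5 controls of that age on slides 2 to 4. For the first AHSP probe the ranges were -4.33 to -3.09 on slide 5 and -7.72 to -5.78 on slides 2 to 4. The 5 cortisol fetuses at 140 d on slides 2 to 4 spread from 0.62 to 5.07 on the HBB RefSeq probe, and the cortisol fetus on slide 5 was at 2.51.

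Without slides 1 and 5, an alternative chosen after the values were seen, the differences between 140 d and 130 d in controls were larger for all 5 probes, at -4.02 and -4.46 for AHSP, -2.87 for HBB RefSeq, -2.41 for HBB EST and -3.71 for fetal beta. In the cortisol arm the AHSP changes were then -2.93 (adjusted p = 0.00764) and -2.29 (adjusted p = 0.0171), and the fetal beta change was -3.88 (adjusted p = 0.00399). Cortisol against control at 140 d was then 1.40 for HBB RefSeq and 1.66 for HBB EST (adjusted p = 0.743 for both), and the fetal beta change turned to 0.48. Within slides, HBB RefSeq in cortisol fetuses minus controls at 140 d was 0.38 on slide 2, 1.99 on slide 3, 2.25 on slide 4 and -1.94 on slide 5, with 1 or 2 cortisol arrays on each. The part of the slide in these levels was not tested beyond these values.

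**Figure D4:**
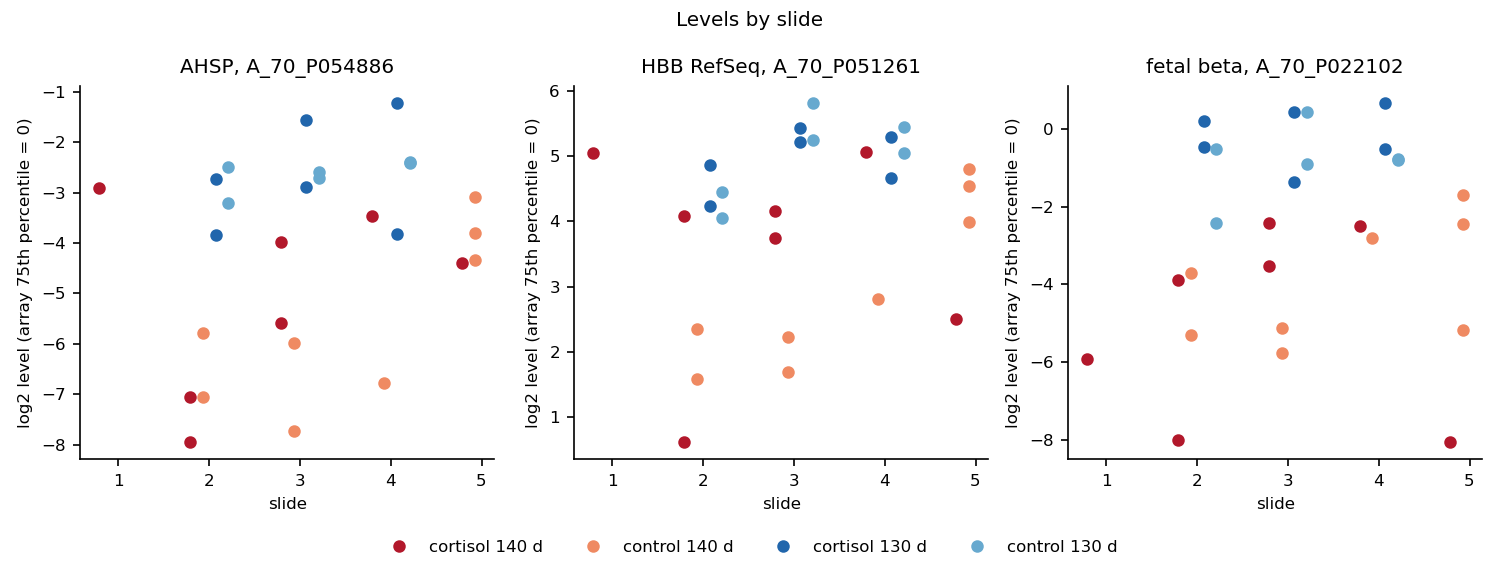
Points are the log2 levels of 1 AHSP probe, the HBB RefSeq probe and the fetal beta probe by slide, coloured by group. The 3 controls at 140 d on slide 5 (HBB RefSeq 4.00 to 4.80) lie above the 5 controls of that age on slides 2 to 4 (1.59 to 2.82).

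Across the 27 arrays, fetuses with more HBB RefSeq signal had more AHSP signal. Pearson's r of the first AHSP probe with HBB RefSeq was 0.85 (Spearman's rho 0.87), 0.80 without the 2 arrays farthest from the median, and 0.75 with the 4 group means removed, which became 0.62 without the 2 farthest arrays. The overlapping AHSP probe gave 0.75 with HBB RefSeq, and 0.54 with group means removed. With the HBB EST probe, r was lower, at 0.55 for the first AHSP probe and 0.47 for the second. These were 0.65 and 0.47 with group means removed. The points share the array scaling, and the r with all arrays includes the difference between ages. With group means removed, r was 0.87 between the HBB probes, 0.65 between HBB RefSeq and fetal beta, and 0.33 between the first AHSP probe and fetal beta. On the arrays where both probes were well above background, the first AHSP probe minus HBB RefSeq was -9.74 to -6.90 on 5 cortisol arrays at 140 d (median -7.95), -8.34 to -7.68 on 5 control arrays at 140 d (median -8.14), -8.48 to -6.51 on 6 cortisol arrays at 130 d (median -7.84) and -8.41 to -6.55 on 6 control arrays at 130 d (median -7.76). AHSP was not measured above background on the other 2 cortisol and 3 control arrays at 140 d, so the groups are not compared.

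**Figure D5:**
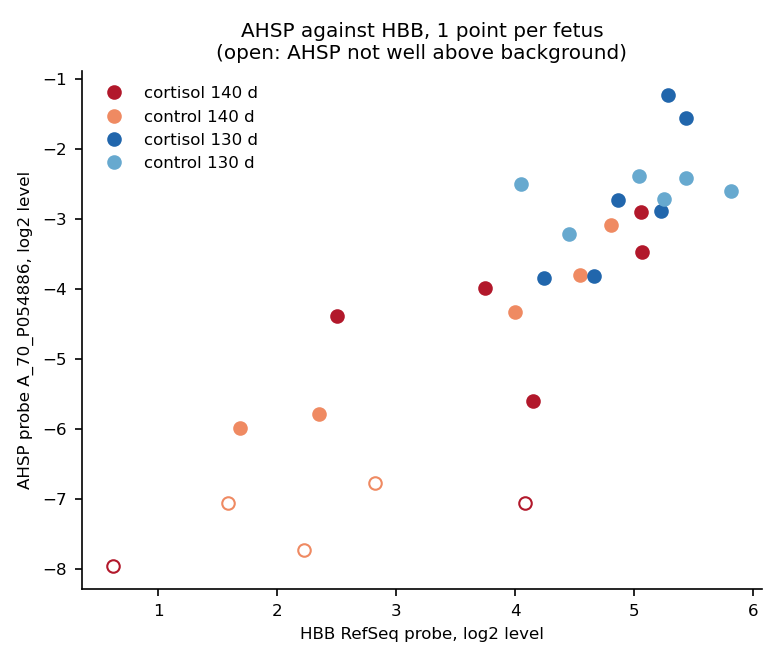
Each point is 1 fetus, with the HBB RefSeq level on the horizontal axis and the level of AHSP probe A_70_P054886 on the vertical axis, both log2 and relative to the array 75th percentile. The points rise together (r = 0.85 over 27 arrays), and the arrays with AHSP not well above background (open) are all from 140 d.

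Among 780 other named genes, the 5 whose levels most resembled the first AHSP probe over all 27 arrays were IGFBP2, which binds insulin-like growth factors (r = 0.76), the galectin LGALS1 (0.73), the activin subunit INHBA (0.71), the activin receptor ACVR1 (0.71) and the interferon-induced ISG15 (0.70). For the HBB RefSeq probe they were IGFBP2 (0.76), the T-cell receptor component CD3E (0.69), the netrin NTN4 (0.67), LGALS1 (0.67) and the transcription factor BHLHE40 (0.67). With the group means removed, the genes were mostly others. RTP4, an interferon-induced transporter protein, led for AHSP (0.61), with CD3E (0.57), the ribosomal protein RPL14 (0.55), the phosphofructokinase PFK-L (0.53) and decorin, DCN (0.52). For HBB RefSeq, CD3E led (0.66), with PFK-L (0.60), CD3D (0.55), IGFBP2 (0.55) and the copper chaperone ATOX1 (0.55).

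Few other red cell genes could be followed under the symbols used. Of 27 listed red cell and precursor genes, 3 were on the array and tested, and 0 of them passed in any of the comparisons. SLC25A37, the mitochondrial iron importer of red cell precursors, and EPOR, the erythropoietin receptor, changed by no more than 0.22 between the ages in either arm. CA1, a carbonic anhydrase abundant in red cells, was well above background on only 6 arrays. Between 140 d and 130 d it changed by -1.79 ± 0.79 in cortisol fetuses (SE, limma adjusted p = 0.135) and by -0.25 ± 0.77 in controls (adjusted p = 0.851). UROD was the only measured gene of 11 for heme synthesis, and it changed by 0.22 in cortisol fetuses and 0.29 in controls, without passing. FTH1, the ferritin heavy chain, and TF, transferrin, were tested from 16 genes of heme clearance and iron, and 0 passed. The same held for the 5 tested genes of globin control and oxygen sensing (VEGFA, EPAS1, NR3C1, HIF1A and EPOR), while EPO was not above background on enough arrays to be tested.

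Markers of other blood and vessel cells were read on the same arrays. Their lists were chosen with earlier results of these data known, so the counts and p values are a description and nothing is read from them. In controls, 3 of 5 tested leukocyte genes were called lower at 140 d than at 130 d, against 9.35% of all probes, namely the integrin ITGB2 (-1.02 ± 0.24), the Fc receptor subunit FCER1G (-1.16 ± 0.31) and lysozyme, LYZ (-1.41 ± 0.41; SE, limma adjusted p = 0.00463, 0.0124 and 0.0179). The leukocyte genes CD3E (-0.66) and CD14 (-0.10) were not called. CATHL1B, a cathelicidin of neutrophils and 1 of 3 tested neutrophil genes, fell by 2.55 ± 0.74 (adjusted p = 0.0179). In cortisol fetuses 0 of these 8 genes passed between the ages, where 8.52% of all probes were called lower. The mean of the 5 leukocyte genes on an array was -3.28 to -1.65 in cortisol fetuses at 140 d, -3.33 to -2.59 in controls at 140 d, -2.84 to -2.04 in cortisol fetuses at 130 d and -2.60 to -1.19 in controls at 130 d. Of 7 platelet genes, 0 were on the array. The 3 endothelial genes PECAM1, NOS3 and KDR did not pass in either arm, and MB rose by 0.48 ± 0.15 in controls (adjusted p = 0.0282). The part of these cells in the globin levels was not tested.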

How the data were processed

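Total RNA of the septum was labelled with Cy3 and hybridised to 1-colour Agilent arrays, 1 fetus per array, per the labels' protocols. Per the file headers, the deposited spot intensity values had been background-subtracted and detrended, with no normalization across arrays. The submitters' processing notes name Agilent Feature Extraction 10.1.1.1. The authors also deposited a table of log2 values, which equalled log2 of that intensity less a constant of each array (residual SD up to 2.06e-06, column medians 0.0864 to 0.121). How that constant was set is not given in the sources used here. The scanner flags for background, saturation and outliers were used as deposited.

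Here, each array's 75th percentile of intensity was subtracted on the log2 scale. Spots flagged as outliers were dropped and replicate spots averaged. The 12778 of 15008 probes that reached the background flag on 6 or more arrays were tested, all 5 of this set among them, and 83 had a missing value. Means of the 4 groups were fitted together with limma 3.58.1 (lmFit, eBayes; R 4.3.3), with Benjamini-Hochberg adjustment over all tested probes and a threshold of 0.05. The fit was tested on simulated data. Differences between the HBB and fetal beta probes within arrays used an exact permutation test (scipy 1.17.1) at 130 d, where both probes were above background on every array. Replicates are separate fetuses.

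The probes and gene lists were chosen with earlier results of these data known. Every probe of the set is named. List genes are named where they passed, up to 8 per comparison, and otherwise counted, and some further list genes are named to show what a list held. The genes most like the first AHSP probe and the HBB RefSeq probe are the 5 with the highest correlation. The RefSeq table (ARS-UI_Ramb_v3.0) was used for names only. Replicate numbers were not used as pairs in the main fit. The correlation of deviations averaged 0.06 over 37 same-numbered pairs (-0.17 to 0.36) and -0.01 over 235 other pairs (-0.34 to 0.32). Over 64 pairs on the same slide it averaged 0.07. Alternatives were normexp (offset 50), quantile and median scaling, the authors' values, other filters, slide and replicate blocks, and leaving out each array.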

Additional observations from a re-analysis of the deposited data

How the results depend on the processing

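The count of called probes in the cortisol arm, 2 of 5, was 1 with normexp, 1 with quantile normalization, 4 with slide as a fixed block, and 0 when only probes above background on all arrays were tested, which left the 2 HBB probes. It ranged from 1 to 3 over 27 fits that each left out 1 array. In the control arm, from which the set was proposed, the count is a description: 4 of 5, with 2 under normexp, 1 of 2 under that filter, 5 with slide as a fixed block and 5 without slides 1 and 5. Nothing is read from the count of either arm. The counts of 0 for the other 3 comparisons stayed at 0 under every alternative run for these probes. Over all probes, the difference of the cortisol effect between ages gave 1 call with the replicate block, 1 without control 130 d replicate 5 and 2 without control 140 d replicate 6. It gave 0 otherwise. Over all probes, normexp called 339 in the cortisol arm (1720 otherwise) and 536 in the control arm (2443 otherwise). The share of higher calls was 36.7% and 51.1% in the 2 arms, and 63.7% and 70.6% after a median shift, which moved all changes by 0.10 and 0.09. With the replicate block, 2 of 5 probes were called in the cortisol arm, 5 of 5 in the control arm and 0 in the other comparisons. The closest array of another group had the same replicate number for 11 of 27 arrays.

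For HBB RefSeq minus fetal beta at 130 d (-0.71, exact p = 0.126), the value was -2.02 with the HBB EST probe, -0.95 with normexp, 0.0313 within slide 3 and -1.04 to -0.58 without 1 array. The planned comparisons of this measure at 140 d and between ages were not run, since the fetal beta probe was not above background on every array.

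Changes of sign occurred among changes that had not passed. Cortisol against control at 130 d turned to 0.27 and 0.22 for the AHSP probes with normexp and to 0.43 and 0.43 within slide 3. It turned to 0.30 for HBB RefSeq within slide 2 and to -0.23 for fetal beta within slide 3. Leaving out 1 array gave -0.33 to 0.20 and -0.32 to 0.22 for the AHSP probes and -0.25 to 0.11 for HBB RefSeq. At 140 d it turned to -1.08 within slide 2 and -0.65 within slide 5 for the first AHSP probe, and within slide 5 to -0.61 for the second, -1.94 for HBB RefSeq and -1.63 for HBB EST. The fetal beta value at 140 d turned to 0.48 without slides 1 and 5, an alternative chosen after seeing the data, and to 2.47 and 0.30 within slides 3 and 4. Between the ages in the cortisol arm, HBB RefSeq was 0.0915 within slide 4 and HBB EST -0.0119 within slide 3. The difference of the cortisol effect between ages was -0.0088 for the first AHSP probe with normexp. The cause of these moves was not tested. The dim spots of AHSP and fetal beta at 140 d limit the size of their changes.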
